A study of Mus musculus with 3 samples.

Results

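The genes described here are 9 mouse genes for retinol oxidation and retinoid handling, followed through the waking of dormant blastocysts. They were 9 of the 31510 genes in the deposited tables, chosen by name: Adh1, Adh5, Adh7, Rdh10 and Dhrs3, which act between retinol and retinal, Aldh1a1, Aldh1a2 and Aldh1a3, which make retinoic acid from retinal, and Cyp26a1, which breaks retinoic acid down. Of these, 8 matched by the deposited symbol and Dhrs3 matched by its Ensembl ID. The choice was made from these same libraries, so the values below describe the 9 genes and are not evidence for the choice.

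Vitamin A reaches cells as retinol. Alcohol dehydrogenases and the membrane-bound enzyme RDH10 oxidise it to retinal, DHRS3 reduces retinal back to retinol, and the retinaldehyde dehydrogenases ALDH1A1, ALDH1A2 and ALDH1A3 oxidise retinal to retinoic acid, the ligand of the nuclear retinoic acid receptors. CYP26A1 hydroxylates retinoic acid and so ends its action, and its gene and Dhrs3 are known to be induced by retinoic acid in many cell types.

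All 3 groups were blastocysts of CD-1 mice, labelled as 2 months old, in which implantation had been delayed: the mothers were ovariectomised on day 4 of pregnancy and received 2 mg progesterone per mouse daily on days 5 to 7. Dormant blastocysts were flushed on the morning of day 8 without estradiol (E2). Reactivating blastocysts came from mice killed 6 h after an E2 injection on day 7, and reactivated blastocysts from mice killed 12 h after it. The E2 dose was not given in the labels, and state, time and day of collection changed together, so they cannot be told apart. Each group was 1 pool of more than 3000 blastocysts and 1 library of rRNA-depleted total RNA, sequenced on the SOLiD platform as 50 bp single-end reads. With 1 library per state there was no replicate check, no test and no p-value, and a pool averages embryos and cell types, so that fewer cells of a type and less RNA per cell cannot be told apart.

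The tables held 9298675 exon reads for dormant, 10364607 for reactivating and 12941447 for reactivated blastocysts. Levels are given as reads per kilobase of exon per 1000000 reads (RPKM), with an exact 95% Poisson interval of the exon reads after each value in parentheses. The interval covers counting error of reads only, and with 1 library per state it holds no variation between libraries. Without molecular identifiers several reads can stem from 1 molecule, so the counting error of molecules can be larger. Genes of the mitochondrial genome and small RNA genes together took 34.2% of exon reads in dormant blastocysts, 31.0% in reactivating and 38.02% in reactivated ones. The labelled tissue was checked against its markers: all 7 trophectoderm, 6 epiblast and 6 primitive endoderm markers looked for had at least 1 RPKM in every library.

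Promoter windows of the 3 best-measured genes are given to show where their transcripts begin. RefSeq (GRCm38.p6) gave 11 windows for 7 of the 9 genes, each running from 250 bases before to 50 bases after a transcript start, and none for Aldh1a3 and Rdh10. Shown are Adh1, the gene with the highest level and the lowest difference, at chr3:138277335-138277634, Cyp26a1, the breakdown enzyme, at chr19:37697558-37697857, and Adh5, the Adh1 relative whose levels overlapped in all 3 libraries, at chr3:138442843-138443142, all on the plus strand. Capitals mark every match to the motifs searched on both strands: the E-box CACGTG, the TATA-box letters TATAAA, and pairs of retinoid receptor half-sites (AGGTCA or AGTTCA or GGGTCA or GGTTCA) in direct repeat with 1, 2 or 5 bases between them.
Adh1: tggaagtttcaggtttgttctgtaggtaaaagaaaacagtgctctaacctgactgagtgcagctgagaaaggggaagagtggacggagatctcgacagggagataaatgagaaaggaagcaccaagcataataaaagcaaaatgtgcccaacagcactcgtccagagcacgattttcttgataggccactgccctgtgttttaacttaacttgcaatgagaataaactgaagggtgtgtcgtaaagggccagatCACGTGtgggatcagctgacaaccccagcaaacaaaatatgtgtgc
Cyp26a1: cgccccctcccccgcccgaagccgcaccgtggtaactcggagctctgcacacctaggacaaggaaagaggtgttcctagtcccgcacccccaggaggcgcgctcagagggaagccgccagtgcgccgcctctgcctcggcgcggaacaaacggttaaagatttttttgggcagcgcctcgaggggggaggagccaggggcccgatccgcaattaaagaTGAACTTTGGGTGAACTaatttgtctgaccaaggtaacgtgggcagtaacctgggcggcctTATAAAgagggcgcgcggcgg
Adh5: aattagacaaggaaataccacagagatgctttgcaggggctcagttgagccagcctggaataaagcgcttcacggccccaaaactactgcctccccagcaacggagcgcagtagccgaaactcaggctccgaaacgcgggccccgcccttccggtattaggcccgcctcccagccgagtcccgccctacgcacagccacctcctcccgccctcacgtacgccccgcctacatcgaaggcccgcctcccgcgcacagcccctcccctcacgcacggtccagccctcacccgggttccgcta

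The Adh1 window held CACGTG at positions 5 to 10, counted from the transcript start as 1, and no other match. In the Cyp26a1 window the repeat TGAACTTTGGGTGAACT lay at positions -32 to -16. On the minus strand it reads as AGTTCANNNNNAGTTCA, a direct repeat with 5 bases between its half-sites, the arrangement known for the retinoic acid response element of this gene. Its half-sites were also the only single half-sites in that window, and TATAAA followed at positions 30 to 35. The Adh5 window had no match. RefSeq gave a second, upstream Adh5 window at chr3:138436950-138437249, not printed, with TATAAA at positions -207 to -202, 47% GC and 3 CpG dinucleotides, and which start these libraries use was not tested. The RefSeq start of Adh1 lies inside the gene span of M21, 13114 bases before its end, close to the deposited gene length of 13028 bases.

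Over all 32851 RefSeq windows of the same length, a direct repeat with 5 bases between half-sites occurred in 32 (0.0974%), a single half-site in 43.7%, TATAAA in 13.6% and CACGTG in 7.15%. GC content was 45.3% in the Adh1 window, 62.3% in the Cyp26a1 window and 65% in the Adh5 window, against a median of 52.7% over all windows. The Adh1 window had 6 CpG dinucleotides, whereas the Cyp26a1 and Adh5 windows had 26 each and the median window 7. These matches describe letters, and no binding was measured.

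Adh1 (ENSMUSG00000074207, chr3:138260991-138290698, plus strand, GENCODE M21 on GRCm38) encodes the class I alcohol dehydrogenase, which oxidises ethanol and retinol. It was among the most abundant messages of the waiting embryo. Its level was 1375 RPKM (1358 to 1392) in dormant, 1497 RPKM (1480 to 1513) in reactivating and 237 RPKM (231 to 243) in reactivated blastocysts, from 25528, 30873 and 5904 exon reads. The dormant and reactivating libraries were both high, and the reactivated one was low, with no overlap between its interval and the others. Among protein-coding genes of the nuclear genome Adh1 ranked 3 in dormant blastocysts, 4 in reactivating and 48 in reactivated ones. It alone took 0.275% of all exon reads in dormant blastocysts, 0.298% in reactivating and 0.0456% in reactivated ones. Psap, which encodes the lysosomal saposin precursor, ranked 1 in every library.

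On the log2(RPKM + 1) scale Adh1 differed by -2.53 in reactivated against dormant blastocysts and by -2.66 in reactivated against reactivating blastocysts. In reads per length and depth, the reactivated level was 0.172 times the dormant level (0.167 to 0.177) and 0.158 times the reactivating level (0.154 to 0.163). Between reactivating and dormant blastocysts the difference was 0.12, a ratio of 1.09 (1.07 to 1.11). Thus the decline lay between the 6 h and 12 h libraries. A gene counted as higher or lower only where its log2 difference was at least 1 in size, or 2 times in RPKM + 1. The higher library also had to reach at least 1 RPKM. Low genes can miss this limit with a change past 2 times in RPKM. Dhrs3 did so in reactivated against dormant blastocysts, with a ratio of 0.372 and a difference of -0.58. Adh1 kept its lower call under all 8 alternative settings, with differences from -2.54 to -2.42 against dormant and from -2.66 to -2.48 against reactivating blastocysts. The 2 other minimums and the interval setting leave the difference of so abundant a gene as it is, and the other pseudocount hardly moves it. The scalings and the exon plus intron counts are therefore the settings that bear on this call.

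Few genes in the tables were lower to the same extent. In reactivated against dormant blastocysts 27 of 12037 genes with at least 1 RPKM had a difference as low as that of Adh1, itself included, and against reactivating blastocysts 15 of 12065 did. Among protein-coding genes, 209 reached 100 RPKM in reactivated or dormant blastocysts, 22 of these were lower, and 4 of them fell as far: Adh1, Grina, Nupr1, a stress-response transcription cofactor, and Gjb2, which encodes connexin 26. Against reactivating blastocysts the count was 23 of 216, with Gjb2 and Adh1 alone as low. These ranks place the gene and rest on the contrast by which it was chosen.

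**Figure D1:**
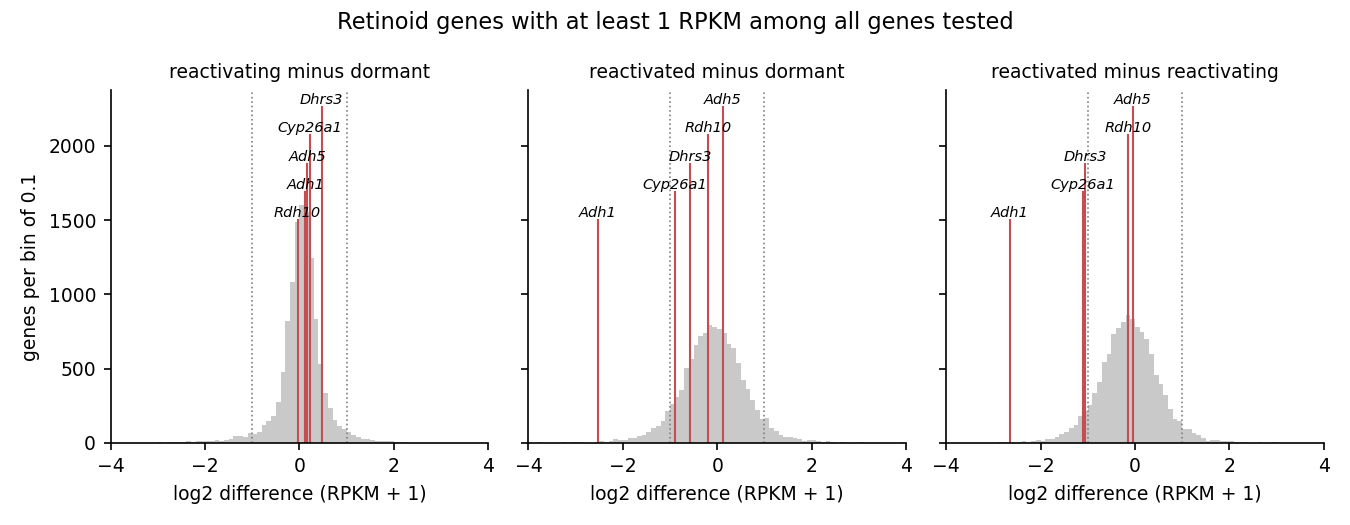
Histograms of the log2 differences (RPKM + 1, horizontal axis, drawn at 4 where larger in size) of all genes tested, in bins of 0.1, for the 3 comparisons, with red lines at the retinoid genes that had at least 1 RPKM and dotted lines at the limit of 1. The heights of the red lines carry no value. Adh1 lies far to the left at -2.53 in reactivated minus dormant and at -2.66 in reactivated minus reactivating, while Adh5 lies near 0, and Cyp26a1 and Dhrs3 lie at the limit in the last panel, inside it under upper-quartile scaling.

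Reads in introns gave a readout that the RPKM does not use. Adh1 had 1517 intron reads in dormant blastocysts, 2080 in reactivating and 512 in reactivated ones, or 118.0 per 1000000 gene reads (112 to 124), 150.2 (144 to 157) and 30.3 (27.7 to 33.0). The intron signal was thus low in the same library as the exon signal. Its ratio was 0.256 in reactivated against dormant (0.231 to 0.284), 0.201 in reactivated against reactivating (0.182 to 0.222) and 1.27 in reactivating against dormant blastocysts (1.19 to 1.36). Exon reads declined further than intron reads: there were 5.94 intron reads per 100 exon reads in dormant blastocysts (5.64 to 6.26), 6.74 in reactivating (6.44 to 7.04) and 8.67 in reactivated ones (7.91 to 9.49). Junction reads numbered 5143 in dormant blastocysts, 5257 in reactivating and 1072 in reactivated ones. Reads on the opposite strand were 6, 10 and 5 in the same order, so almost all reads came from the Adh1 strand. Of all stretches of 50 bases in its M21 transcripts 2.11% also occur in another gene's transcripts, namely Gm16559 or the pseudogene Adh6-ps1. The M21 gene is 29708 bases long, so the intron counts follow a shorter model than the coordinates above.

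**Figure D2:**
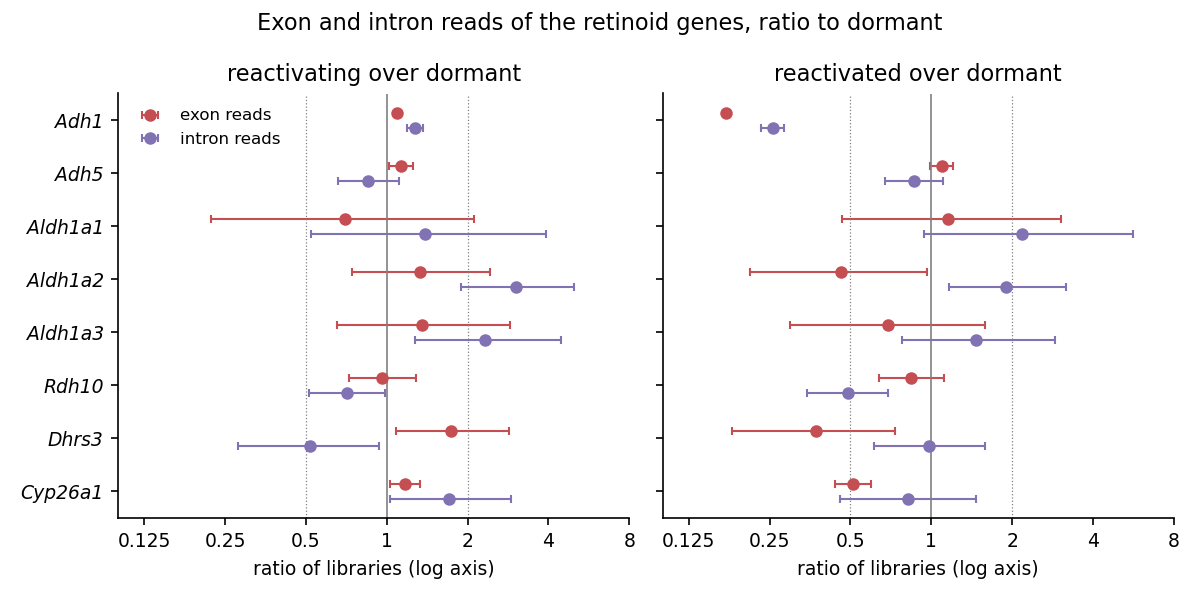
Ratios of exon reads (red) and intron reads (purple) to the dormant library on a log axis, for reactivating and for reactivated blastocysts, with exact 95% intervals covering counting error only, for the 8 genes with 20 or more intron reads in a library. For Adh1 both ratios lie far below 1 in the reactivated panel, at 0.172 for exons and 0.256 for introns, and close to 1 in the reactivating panel.

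Genes listed as markers of maternal cells were read beside this result, the embryos having been flushed from the uterus. Whether their reads came from maternal cells or from the embryos was not tested. The 14 uterine epithelium markers summed to 111.9 RPKM in dormant, 106.6 RPKM in reactivating and 62.0 RPKM in reactivated blastocysts, and 6, 5 and 5 of them reached 1 RPKM in those libraries. Most of each sum came from Lif, a cytokine, Wfdc2, a secreted protease inhibitor, and Msx1, a homeobox factor. Ltf, Pgr, Esr1, Calb1, Ihh, Prss28 and Sult1d1 were under 1 RPKM in every library. These are a part of the list, to which Muc1, Sprr2f and Lcn2 also belong, and those were not all under 1 RPKM. The 8 stroma markers summed to 5.20 RPKM in dormant, 4.92 RPKM in reactivating and 1.73 RPKM in reactivated blastocysts. Of these markers 1, 2 and 0 reached 1 RPKM in those libraries, and the highest of them had 2.39, 1.73 and 0.71 RPKM. The 6 immune markers summed to 18.9 RPKM in dormant, 15.3 RPKM in reactivating and 6.17 RPKM in reactivated blastocysts, most of it Laptm5, and 5 red cell markers stayed at 0.50 to 0.66 RPKM in sum. By the rule Lif, Wfdc2 and Laptm5 were lower in reactivated blastocysts against both others, and the immune genes Cd14 and Tyrobp against dormant. Lower against dormant were thus 2 of 6 epithelium and 3 of 3 immune markers tested, beside 7.66% of all tested genes. Against reactivating blastocysts 2 of 5 and 1 of 2 were lower, beside 7.63% of all tested genes. Prss29, a uterine gland protease, was lower in reactivating against dormant blastocysts, with 1.82 RPKM in dormant, 0.19 RPKM in reactivating and 0.99 RPKM in reactivated blastocysts. It was 1 of 6 epithelium markers tested there, beside 3.07% lower of all tested genes. The 7 trophectoderm markers summed to 1210 RPKM in dormant, 1191 RPKM in reactivating and 937 RPKM in reactivated blastocysts, where Cdx2 was lower and Elf5 higher against both others and Gata3 was lower against dormant. All 7 of these markers were tested. Of all tested genes 5.27% were higher against dormant and 3.82% against reactivating blastocysts, with the lower shares as above. Esrrb, 1 of 6 epiblast markers tested, was lower in reactivated against reactivating blastocysts, a call kept in 4 of 8 alternatives. The part of any of these cells in the Adh1 decline was not tested.

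Adh5 (ENSMUSG00000028138, chr3:138443093-138455499, plus strand) encodes the class III enzyme, a glutathione-dependent formaldehyde dehydrogenase with weak activity on retinol. Its level was 31.2 RPKM (28.9 to 33.7) in dormant, 35.2 RPKM (32.8 to 37.6) in reactivating and 34.1 RPKM (32.0 to 36.3) in reactivated blastocysts. The intervals overlapped throughout. Between reactivating and dormant blastocysts the difference was 0.17, a ratio of 1.13 whose interval (1.02 to 1.25) lay just above 1. Differences were 0.12 in reactivated against dormant and -0.04 in reactivated against reactivating blastocysts, the sign of the second turning in 3 of 8 alternatives. Intron reads numbered 124, 114 and 141 in dormant, reactivating and reactivated blastocysts. The Adh1 level was 44.0 times that of Adh5 in dormant, 42.5 times in reactivating and 6.93 times in reactivated blastocysts.

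Adh7 (ENSMUSG00000055301, chr3:138217760-138233382, plus strand), the class IV enzyme of stomach and skin epithelia, had 15 exon reads in dormant blastocysts, 27 in reactivating and 7 in reactivated ones. These give 0.33, 0.53 and 0.11 RPKM, under the 1 RPKM minimum in every library. Its neighbours of the same cluster were also near 0: Adh6a had 0 to 0.09 RPKM, Adh6b 0 to 0.04 and Adh4 0 to 0.08 over the 3 libraries. So within the alcohol dehydrogenase cluster of chromosome 3 only Adh1 and Adh5 were measured above 1 RPKM. Other genes within 250 kb, a window chosen after values were seen, included Metap1, a methionine aminopeptidase gene, at 28.4 RPKM in dormant, 33.5 RPKM in reactivating and 45.8 RPKM in reactivated blastocysts. Eif4e, the cap-binding translation factor, had 4.03 RPKM in dormant, 2.66 RPKM in reactivating and 7.05 RPKM in reactivated blastocysts, higher by 1.14 than in reactivating blastocysts. Of the 12 genes in that window only Mttp, Trmt10a, Adh5, Metap1 and Eif4e reached 1 RPKM in a library besides Adh1. None of them was lower by the rule. Over all tested genes 3.07% were lower in reactivating against dormant and 7.66% in reactivated against dormant blastocysts. In reactivated against reactivating blastocysts the share was 7.63%, and nothing is read from so few genes.

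**Figure D3:**
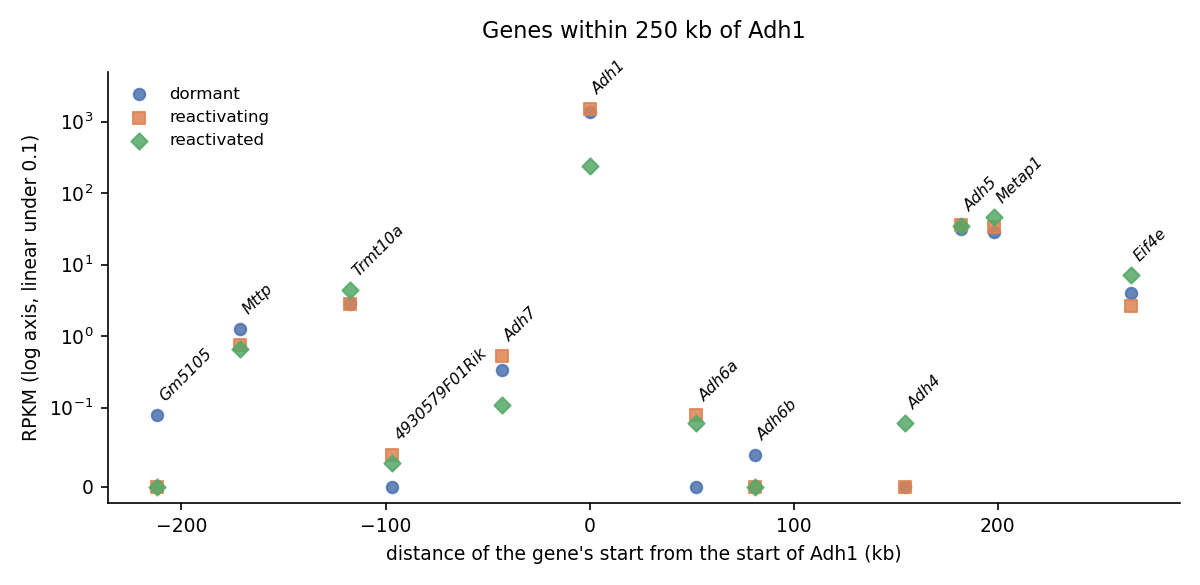
Level of each gene of the tables lying within 250 kb of Adh1 (RPKM, log axis that is linear under 0.1) against the distance of its start from the Adh1 start in kb, with 1 point for each library. Adh1 stands above the others in every library, its reactivated point at 237 RPKM, whereas Adh5 and Metap1 lie between 28.4 and 45.8 RPKM and the other alcohol dehydrogenase genes under 1 RPKM.

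Rdh10 (ENSMUSG00000025921, chr1:16105774-16133734, plus strand), the retinol dehydrogenase that embryos need for most of their retinal, had 3.06 RPKM (2.48 to 3.72) in dormant, 2.95 RPKM (2.41 to 3.56) in reactivating and 2.57 RPKM (2.12 to 3.09) in reactivated blastocysts. The intervals overlapped, and differences were -0.19 in reactivated against dormant and -0.15 in reactivated against reactivating blastocysts. Intron reads numbered 90, 69 and 58 in dormant, reactivating and reactivated blastocysts, a ratio of 0.489 in reactivated against dormant (0.346 to 0.688). Per 1000000 intron reads that ratio was 0.575, within 2 times.

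Dhrs3 (ENSMUSG00000066026, chr4:144892827-144928209, plus strand) was scarce. It had 1.12 RPKM (0.745 to 1.62) in dormant, 1.94 RPKM (1.46 to 2.54) in reactivating and 0.42 RPKM (0.228 to 0.699) in reactivated blastocysts, from 28, 54 and 14 exon reads. The reactivated interval lay below both others. The difference was -1.05 in reactivated against reactivating blastocysts, a ratio of 0.214 (0.110 to 0.391), and the call held in 3 of 8 alternatives. It was lost under upper-quartile scaling (-0.97), median-ratio scaling (-0.97), a total without mitochondrial and small RNA genes (just short of the limit) and exon plus intron counts per 1000000 reads (-0.50), and with a 5 RPKM minimum. Junction reads were 10, 25 and 0 in dormant, reactivating and reactivated blastocysts, whereas intron reads were 34, 19 and 44 and opposite-strand reads 4, 6 and 25. Per 1000000 gene reads the intron ratio was 0.983 in reactivated against dormant blastocysts, so the reactivated library was low in exon and junction reads alone.

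The 3 genes for retinal oxidation were all under 1 RPKM in every library. Aldh1a1 (ENSMUSG00000053279, chr19:20492715-20643465, plus strand) had 9 exon reads in dormant blastocysts, 7 in reactivating and 14 in reactivated ones, or 0.31, 0.22 and 0.36 RPKM. Aldh1a2 (ENSMUSG00000013584, chr9:71215789-71296243, plus strand), the main source of retinoic acid in the early postimplantation embryo, had 21, 31 and 13 exon reads, or 0.67, 0.90 and 0.31 RPKM. Aldh1a3 (ENSMUSG00000015134, chr7:66390890-66427517, minus strand) had 14, 21 and 13 exon reads, or 0.29, 0.39 and 0.20 RPKM. Together they summed to 1.27 RPKM in dormant blastocysts, 1.51 in reactivating and 0.87 in reactivated ones. A floor of 3 reads per library stood between 0.0465 and 0.162 RPKM for the 9 genes. Of the stretches of 50 bases in Aldh1a1 transcripts 3.06% also occur in Aldh1a7, which had 0 exon reads in each library. The upper end of its Poisson interval was 0.127 RPKM in dormant blastocysts, 0.114 in reactivating and 0.0943 in reactivated ones.

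Intron reads of the retinaldehyde dehydrogenase genes outnumbered their exon reads in most libraries. Aldh1a2 had 24 intron reads in dormant blastocysts, 78 in reactivating and 60 in reactivated ones, a ratio of 3.02 in reactivating against dormant blastocysts (1.89 to 4.99). Aldh1a3 had 16, 40 and 31, a ratio of 2.32 in the same comparison (1.27 to 4.44). For both, reads on the opposite strand were a large share of all reads at the gene: 39.2% in dormant blastocysts, 31.0% in reactivating and 40.7% in reactivated ones at Aldh1a2, and 34.8%, 24.7% and 32.3% at Aldh1a3. Over all genes that share was 3.86%, 4.75% and 4.87% in the same libraries. Aldh1a2 junction reads were 11, 5 and 0 in dormant, reactivating and reactivated blastocysts. The part of unspliced or background reads in these counts was not tested.

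By introns, with a change of 2 times and at least 20 intron reads in the higher library, 2 of 7 measured genes of the set were higher in reactivating than in dormant blastocysts, Aldh1a2 and Aldh1a3. Over all 11661 genes with such counts 8.4% were higher and 2.08% lower. In reactivated against dormant blastocysts 1 of 8 was higher, Aldh1a1 with 23 against 8 reads, and 2 were lower, Adh1 and Rdh10, beside 11.3% higher and 6.49% lower of 12159 genes. The Aldh1a1 ratio was 2.18, with an interval (0.943 to 5.65) that included 1. In reactivated blastocysts 31.5% of the reads at Aldh1a1 lay on the opposite strand. Per 1000000 intron reads instead, Aldh1a2 was also higher (2.23 times) and Rdh10 was no longer lower. In reactivated against reactivating blastocysts 2 of 8 were lower, Adh1 and Cyp26a1, beside 5.14% higher and 7.83% lower of 12394 genes, and per 1000000 intron reads Cyp26a1 no longer was (0.513 times) while Dhrs3 was higher (2.02 times).

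Cyp26a1 (ENSMUSG00000024987, chr19:37697798-37701536, plus strand) was the third most abundant gene of the set. Its level was 16.9 RPKM (15.3 to 18.6) in dormant, 19.7 RPKM (18.1 to 21.5) in reactivating and 8.6 RPKM (7.63 to 9.67) in reactivated blastocysts, from 411, 534 and 282 exon reads. The reactivated library was again the low one, with an interval below both others. The difference was -1.11 in reactivated against reactivating blastocysts, a ratio of 0.436 (0.376 to 0.505), which counted as lower. That call held in 6 of 8 alternatives and was lost under upper-quartile scaling (-0.94) and median-ratio scaling (-0.96). Against dormant blastocysts the difference was -0.90, short of the limit, a ratio of 0.510 (0.437 to 0.595). Junction reads numbered 42, 111 and 33 and intron reads 25, 46 and 27 in dormant, reactivating and reactivated blastocysts. The intron ratio was 0.480 in reactivated against reactivating blastocysts (0.287 to 0.789).

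**Figure D4:**
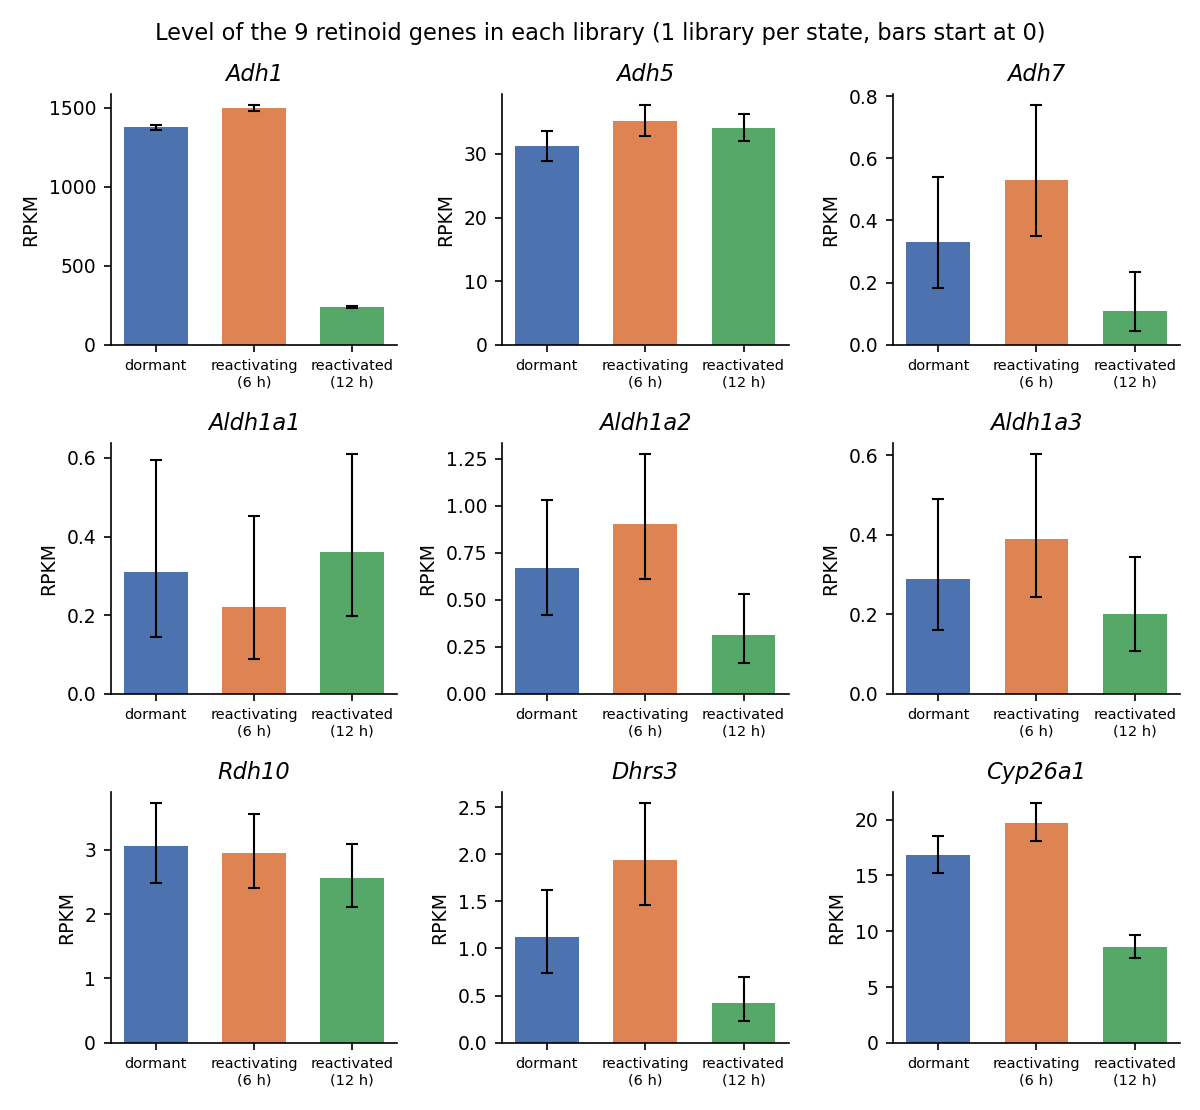
Level of each of the 9 genes (RPKM, bars from 0, each panel with its own scale) in the 3 libraries, with exact 95% Poisson intervals that cover counting error only. Adh1 stands at 1375, 1497 and 237 RPKM, Adh5 between 31.2 and 35.2 RPKM, and the 3 Aldh1a genes and Adh7 under 1 RPKM.

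Taking the 9 genes as a set, 5 had at least 1 RPKM in dormant blastocysts, 5 in reactivating and 4 in reactivated ones. Their levels summed to 1429 RPKM in dormant, 1558 RPKM in reactivating and 283.2 RPKM in reactivated blastocysts, and Adh1 made up 96.2%, 96.0% and 83.5% of these sums. Without Adh1 the sums were 53.9 RPKM in dormant, 61.8 RPKM in reactivating and 46.7 RPKM in reactivated blastocysts. In dormant and reactivated blastocysts the order Adh1, Adh5, Cyp26a1, Rdh10 had no overlap between neighbouring intervals. Below these the levels of Dhrs3, Adh7 and the Aldh1a genes overlapped with their neighbours. In reactivating blastocysts Rdh10 and Dhrs3 overlapped, and Dhrs3 stood apart from Aldh1a2.

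In reactivating against dormant blastocysts 0 of the 5 measured genes of the set were higher or lower, where 2.68% of 12126 genes were higher and 3.07% lower. In reactivated against dormant blastocysts 0 were higher and 1 lower, Adh1, where 5.27% of 12037 genes were higher and 7.66% lower. In reactivated against reactivating blastocysts 0 were higher and 3 lower, Adh1, Cyp26a1 and Dhrs3, where 3.82% of 12065 genes were higher and 7.63% lower, and under upper-quartile or median-ratio scaling 1 was lower, Adh1. Where the Poisson intervals of both libraries also had to lie apart, the counts were the same, beside 1.51% higher and 1.63% lower of all genes in reactivating against dormant, 4.28% and 6.55% in reactivated against dormant, and 2.87% and 6.62% in reactivated against reactivating blastocysts. Median log2 differences of the 5 genes were 0.17, -0.58 and -1.05 in the same order of comparisons, beside 0.06, -0.07 and -0.13 over all tested genes. The comparisons share libraries and the genes were chosen on them, so nothing is read from these shares.

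The wider retinoid route was followed through 55 further genes, of which 54 were in the tables and 23, 24 and 22 were tested in reactivating against dormant, reactivated against dormant and reactivated against reactivating blastocysts. In reactivating against dormant blastocysts 1 was higher and 1 lower, with a median of -0.03. In reactivated against dormant blastocysts 1 was higher and 3 lower, with a median of -0.57. In reactivated against reactivating blastocysts 0 were higher and 2 lower, with a median of -0.26. Over all tested genes the medians were 0.06, -0.07 and -0.13, and 2.68% were higher and 3.07% lower, 5.27% and 7.66%, and 3.82% and 7.63% in these comparisons. Upper-quartile scaling left 1 higher and 0 lower against dormant, and 0 lower against reactivating blastocysts.

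Among uptake and binding genes 5 or 6 of 13 were tested. Fabp5, a binding protein that can carry retinoic acid to PPARD, had 0.54 RPKM (0.175 to 1.26) in dormant, 3.69 RPKM (2.61 to 5.07) in reactivating and 2.25 RPKM (1.49 to 3.25) in reactivated blastocysts, from 5, 38 and 28 reads. It was higher by 1.61 in reactivating and by 1.08 in reactivated than in dormant blastocysts, the second not in exon plus intron counts per 1000000 reads (0.89), and since Fabp5 has processed pseudogenes its counts are uncertain. Ttr, the plasma carrier partner of retinol-binding protein, had 12 reads in dormant blastocysts, 0 in reactivating and 2 in reactivated ones, which counted as lower in both against dormant, though in neither by exon plus intron counts per 1000000 reads. The retinol receptor gene Stra6 had 1.55 RPKM in dormant, 1.5 RPKM in reactivating and 2.91 RPKM in reactivated blastocysts, short of the limit. Lpl had 6.91 RPKM in dormant, 7.12 RPKM in reactivating and 4.03 RPKM in reactivated blastocysts, and Scarb1 had 3.37, 5.61 and 5.69 RPKM in the same libraries. Crabp1, Crabp2 and Lrat, the retinol-storing acyltransferase, were low, Lrat with 0.27 RPKM at most.

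Of the further retinol and retinal enzymes, 5 of 15 were tested. Akr1b8, an aldo-keto reductase, was the most abundant at 102.8 RPKM (98.2 to 107.6) in dormant, 109.7 RPKM (105 to 114) in reactivating and 64.6 RPKM (61.4 to 67.8) in reactivated blastocysts, a difference of -0.66 against dormant that did not reach the limit. Rdh14 had 4.23 RPKM in dormant, 6.56 RPKM in reactivating and 2.75 RPKM in reactivated blastocysts, lower by the rule against reactivating at -1.01 but not under the 3 other scalings. Rdh11, a retinal reductase of the endoplasmic reticulum, had 7.21 RPKM (6.14 to 8.41) in dormant, 7.09 RPKM (6.08 to 8.22) in reactivating and 12.2 RPKM (10.9 to 13.5) in reactivated blastocysts, intervals apart but a difference of 0.68. Rdh13 stayed between 8.44 and 11.3 RPKM. None of the 4 further retinal oxidation genes and neither of the other breakdown genes, Cyp26b1 and Cyp26c1, reached 1 RPKM in any library. Dgat1 and Lipe were the storage and release genes tested, and neither changed by the rule.

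Receptor and cofactor genes were better measured, with 11 of 14 tested against dormant. In reactivated against dormant blastocysts 0 were higher and 2 lower, with a median of -0.66 beside -0.07 over all tested genes, of which 5.27% were higher and 7.66% lower. Rxrb, a retinoid X receptor, had 19.2 RPKM (17.8 to 20.7) in dormant, 17.5 RPKM (16.2 to 18.8) in reactivating and 8.66 RPKM (7.86 to 9.52) in reactivated blastocysts. Its difference from dormant was -1.06, and the call was lost under upper-quartile (-0.96) and median-ratio (-0.98) scaling. Ncoa1, a nuclear receptor coactivator, had 7.09 RPKM (6.49 to 7.73) in dormant, 6.94 RPKM (6.38 to 7.54) in reactivating and 2.83 RPKM (2.51 to 3.19) in reactivated blastocysts. Its differences were -1.08 from dormant, lost under upper-quartile scaling (-0.99), and -1.05 from reactivating blastocysts, lost under all 3 other scalings.

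Rxra, the partner of the retinoic acid receptors, had 8.64 RPKM in dormant, 8.07 RPKM in reactivating and 3.93 RPKM in reactivated blastocysts, a difference of -0.97 from dormant that missed the limit. The retinoic acid receptor Rara had 1.76 RPKM in dormant, 1.51 RPKM in reactivating and 0.66 RPKM in reactivated blastocysts, also short of it, and Rarg stayed between 1.67 and 2.16 RPKM. Rarb had at most 0.35 RPKM. The coactivator Ncoa3, the most abundant of the list, stayed between 27.6 and 29.7 RPKM, and the corepressor Ncor1 had 15.1 RPKM in dormant, 11.3 RPKM in reactivating and 9.14 RPKM in reactivated blastocysts.

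**Figure D5:**
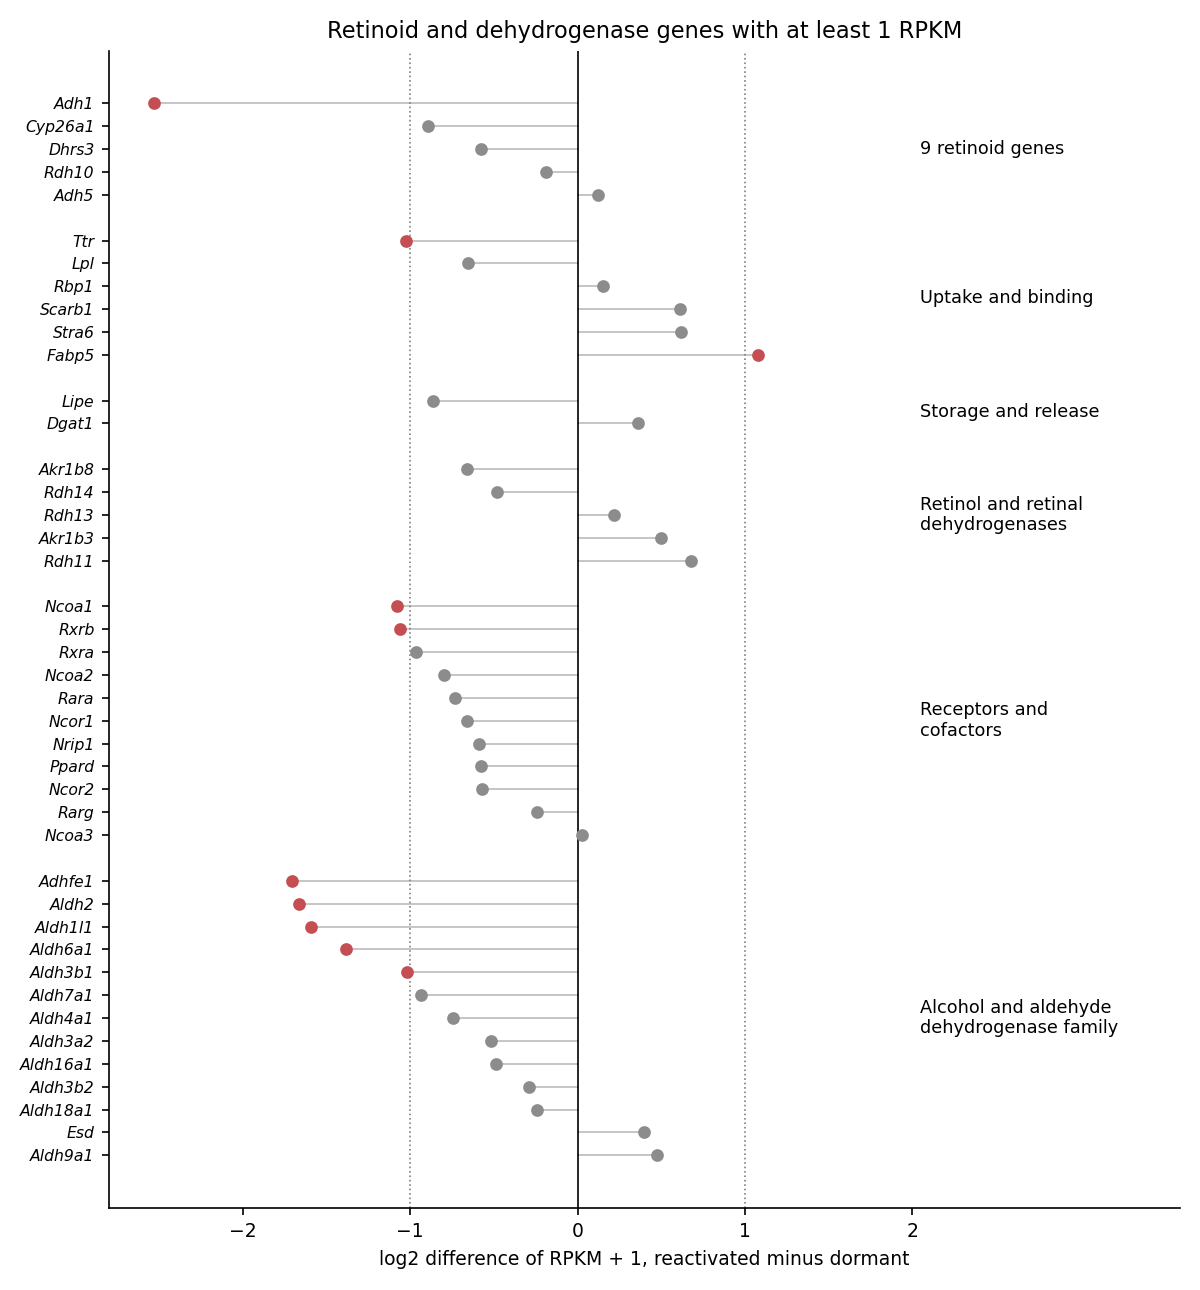
Log2 differences (RPKM + 1) in reactivated minus dormant blastocysts of the genes with at least 1 RPKM, by role, with dotted lines at the limit of 1 and red points for genes past it. Adh1 lies at -2.53 and 4 of the wider dehydrogenase family beyond -1.3, while Rxrb, Ncoa1 and Ttr lie just past the limit and inside it under upper-quartile scaling.

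Of 25 genes known as retinoic acid targets in other systems, Cyp26a1 and Dhrs3 among them, 9 or 10 had at least 1 RPKM. None passed the rule in reactivating against dormant or in reactivated against dormant blastocysts. Cyp26a1 and Dhrs3 alone were lower in reactivated against reactivating blastocysts, with 0 lower under upper-quartile or median-ratio scaling. Of all tested genes 2.68% were higher and 3.07% lower, 5.27% and 7.66%, and 3.82% and 7.63% in these comparisons in turn. The list medians were 0.21, -0.13 and -0.21 in these comparisons, beside 0.06, -0.07 and -0.13 over all tested genes. In exon plus intron counts per 1000000 reads, where 18 genes of the list were tested, the last 2 list medians were 0.09 and 0.16. Over all genes tested in that way they were 0.04 and -0.09. Cdx1, the most abundant, had 21.7 RPKM in dormant, 26.7 RPKM in reactivating and 24.9 RPKM in reactivated blastocysts. Pbx2, Gata6 and Rai14 ranged between 6.69 and 11.8 RPKM, and Hoxb1 and Stra8 were under 1 RPKM throughout.

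The dehydrogenase family beyond the retinoid genes was read through 22 genes, of which 14, 13 and 13 were tested. In reactivating against dormant blastocysts 0 were higher and 0 lower, with a median of 0.11. In reactivated against dormant blastocysts 0 were higher and 5 lower, with a median of -0.74, and against reactivating blastocysts again 0 were higher and 5 lower, with a median of -0.69. Of all tested genes 5.27% were higher and 7.66% lower against dormant, with a median of -0.07, and 3.82% and 7.63% against reactivating blastocysts, with a median of -0.13. Aldh2, the mitochondrial acetaldehyde dehydrogenase that follows alcohol dehydrogenase in ethanol breakdown, had 225 RPKM (219.9 to 231) in dormant, 235 RPKM (229 to 240.2) in reactivating and 70.3 RPKM (67.6 to 73.0) in reactivated blastocysts. Its differences were -1.67 and -1.72. Aldh1l1, a cytosolic folate enzyme, had 39.6 RPKM (37.7 to 41.5) in dormant, 43.3 RPKM (41.5 to 45.2) in reactivating and 12.4 RPKM (11.5 to 13.4) in reactivated blastocysts. The reactivated library was low for both, with no overlap.

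Adhfe1, a mitochondrial hydroxyacid dehydrogenase, had 12.4 RPKM (11.1 to 13.9) in dormant, 14.4 RPKM (13.1 to 15.8) in reactivating and 3.11 RPKM (2.56 to 3.75) in reactivated blastocysts. Aldh6a1, the methylmalonate semialdehyde dehydrogenase of valine breakdown, had 32.6 RPKM (30.6 to 34.6) in dormant, 32.1 RPKM (30.3 to 34.0) in reactivating and 11.9 RPKM (10.9 to 13.0) in reactivated blastocysts. These 2 genes, with Aldh2 and Aldh1l1, kept both lower calls in 8 of 8 alternatives. Aldh3b1 was lower against dormant at -1.02, on 4 reads in reactivated and 33 reads in dormant blastocysts, and Aldh4a1, of proline breakdown, was lower against reactivating blastocysts at -1.09, with 8.55 against 19.4 RPKM. These calls were less stable and were kept in 5 of 8 alternatives each. Aldh18a1, of proline synthesis, stayed between 17.54 and 20.97 RPKM.

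The genes most like Adh1 over the 3 libraries were sought by Euclidean distance between pairs of log2 differences from dormant, among 6789 protein-coding genes that reached 5 RPKM in any library. The nearest was Pramel6, a gene of early embryos, at a distance of 0.102, with 27.6 RPKM in dormant, 28.3 RPKM in reactivating and 4.11 RPKM in reactivated blastocysts. Ahnak2 (0.109), Fxyd6 (0.193), Wnt3a (0.209) and Papln (0.290) followed. Fxyd6, a regulator of the sodium pump, had 105 RPKM in dormant, 122 RPKM in reactivating and 19.7 RPKM in reactivated blastocysts. Adh5 lay at a distance of 2.66 from Adh1 and Cyp26a1 at 1.64. Nearest to Cyp26a1 were Clcn2 (0.0111), Mtmr14 (0.0170), Tmem50a (0.0241), Renbp (0.0245) and Fam117a (0.0252). With 3 libraries such likeness is a description of 2 differences only.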

How the data were processed

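RNA of mouse blastocysts was measured in 3 states with 1 pooled library each, grouped by the sample titles. Per the file headers, the authors deposited read counts per gene in exons, in introns, across junctions and on the opposite strand, together with gene and exon lengths (other values) and an RPKM they computed. The submitters' processing notes name GRCm38, while aligner, counter and annotation version were not given in the sources used here. RPKM followed from the deposited counts within 2% or 0.011 RPKM, with 1 exception, using totals of 14118723, 15687239 and 18982195 reads for dormant, reactivating and reactivated blastocysts. Coordinates came from GENCODE M21, which held 26687 of 31510 IDs (84.7%), and promoter windows from RefSeq (GRCm38.p6).

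Differences were log2((RPKM + 1)/(RPKM + 1)), a scale that understates changes of low genes. Called genes had a difference of at least 1 and at least 1 RPKM in the higher library. Intervals were exact 95% Poisson intervals, or exact binomial ones for ratios. The scripts used Python 3.11.15, numpy 2.4.6, pandas 2.3.3 and scipy 1.17.1, and were tested on simulated data. The 9 genes and all lists were chosen with earlier results of these data known. Named were the 9 genes, listed genes past the rule, the 4 most abundant of each list otherwise, and the 5 nearest patterns, except that cell marker lists are given by their sums and their genes past the rule. A few further genes were named after their values were seen. Alternatives were another pseudocount, 2 other minimums, 3 other scalings, exon plus intron counts per 1000000 reads (CPM), and intervals that do not overlap.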

Additional observations from a re-analysis of the deposited data

How the results depend on the processing

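The 8 alternatives left the lower call of Adh1 in place in both comparisons with reactivated blastocysts, and 0 of the 9 genes changed between reactivating and dormant blastocysts under any of them. With a pseudocount of 0.1 RPKM, 2 of the 9 genes changed in reactivated against dormant blastocysts in place of 1, Dhrs3 being added at -1.23. In reactivated against reactivating blastocysts 1 changed in place of 3 under upper-quartile scaling and 1 under median-ratio scaling. Of the wider retinoid route, with a minimum of 5 RPKM, 0 genes changed in place of 2 in reactivating against dormant blastocysts and 2 in place of 4 in reactivated against dormant blastocysts. In that last comparison 8 changed with a pseudocount of 0.1 RPKM and 1 under upper-quartile scaling. In reactivated against reactivating blastocysts the route had 6 changed genes with a pseudocount of 0.1 RPKM, 4 by CPM, and 0 under upper-quartile scaling, 0 under median-ratio scaling and 0 with a total that leaves out mitochondrial and small RNA genes, in place of 2. Before the pseudocount, which lessens the shift of low genes, upper-quartile scaling shifted log2 ratios by 0.12 in reactivated against dormant and by 0.18 in reactivated against reactivating blastocysts, and median-ratio scaling shifted the second by 0.16. Over all genes upper-quartile scaling moved the share of higher among changed genes to 51.9% in place of 40.7% against dormant and to 52.0% in place of 33.4% against reactivating blastocysts. Under the total without mitochondrial and small RNA genes, which shifted the second comparison by 0.11, that share was 44.8%, under median-ratio scaling 50.2%, and by CPM in reactivating against dormant blastocysts 65.5% in place of 46.6%. Per 1000000 intron reads the intron calls of the 9 genes were 2 higher and 1 lower in place of 1 and 2 in reactivated against dormant, and 1 higher and 1 lower in place of 0 and 2 in reactivated against reactivating blastocysts, with Rdh10 and Cyp26a1 lost and Aldh1a2 and Dhrs3 gained. No replicate could be left out, and no replicate block exists. No paired analysis was possible because each state has 1 library. Depth limits the genes under 1 RPKM, such as Adh7 in reactivated blastocysts with 7 exon reads.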
